A study of Mus musculus with 8 samples.

Results

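The germ layer and lineage factors examined here were 35 mouse genes that specify primitive streak, mesoderm, endoderm, heart, blood, vessel and outer epithelial fates. Each row of 8 deposited peak lists whose assigned gene was one of the 35 was kept, and rows were reduced to 1 per peak and gene. Of the 35 genes, out of 21900 protein-coding genes in the reference table, 28 had at least 1 peak of N6-methyladenine (6mA, a methyl group on the adenine base of DNA) and 7 had none. In the longest list alone 48.3% of all protein-coding genes had a peak. The share of all genes over the 8 lists together is not given here, so the 28 are not set against a background. They held 102 pairs of a peak and a gene, from 100 distinct peaks of the 90798 in all lists.

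6mA was mapped by MeDIP-seq, in which sonicated DNA is pulled down with an antibody to the modified base and compared with the DNA kept aside as input. The NTD group (neural tube defect) was brain DNA of embryos whose mothers ate a low folate diet and received 1.5 mg/kg of MTX, the folate antagonist methotrexate, at gestational day 7.5. The CON group was brain DNA of embryos with closed neural tubes whose treatment is labelled normal saline, and both groups were examined at E9.5 to E10.5. FA0 and FA4 were Sv129 mouse embryonic stem cells, split from 1 culture and kept in serum and leukemia inhibitory factor, in medium without folate or with folate added to 4 mg/L. Each brain group had 3 immunoprecipitations (NTD 1 to 3 and CON 1 to 3) and each cell condition had 1. Embryos were put in the NTD group by diet, drug and malformation together, so these cannot be told apart, and nothing in the labels shows that a group's 3 immunoprecipitations came from separate embryos. The embryos' strain is not in the labels used here. Peaks in DNA do not report transcription, so the tissue and cell identities were not checked against marker RNA.

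Germ layers arise at gastrulation, when cells pass through the primitive streak under the T-box factors T and Eomes and become mesoderm and definitive endoderm. Fork head, GATA, T-box and homeobox factors then fix heart, gut, blood and vessel fates, while Cdx2 and Elf5 act in the trophectoderm, the outer layer that forms placenta. In embryonic stem cells many such genes, though not all, are held silent or nearly so and are turned on as the cells differentiate. Most of the genes examined here are outside the neural programme of embryonic brain. 6mA in mammalian DNA is rare, and its amount and roles are debated.

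The 6 brain lists held 2797 to 7100 peaks, FA0 held 38699 and FA4 held 20186. CON 1 was the shortest, at 2797 peaks. Most peaks were weak. A deposited q of at most 0.05 was reached by 1.28% of brain peaks, 2.67% of FA0 peaks and 4.68% of FA4 peaks, and by 0 of 25 member peaks in brain and 1 of 75 in the cells. Member peaks rested on 6 to 12 tags (reads counted by the authors at the peak), where 6 tags carry an exact Poisson 95% interval of 2.202 to 13.1 and 12 tags one of 6.20 to 21.0, for counting error only. Their deposited folds were 2.02 to 4.19, and none of the 100 reached 5. At 79 of the 100 the background recovered from the fold was the usual value of the list. There the fold follows from the tag count and is not a second measurement.

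**Figure D1:**
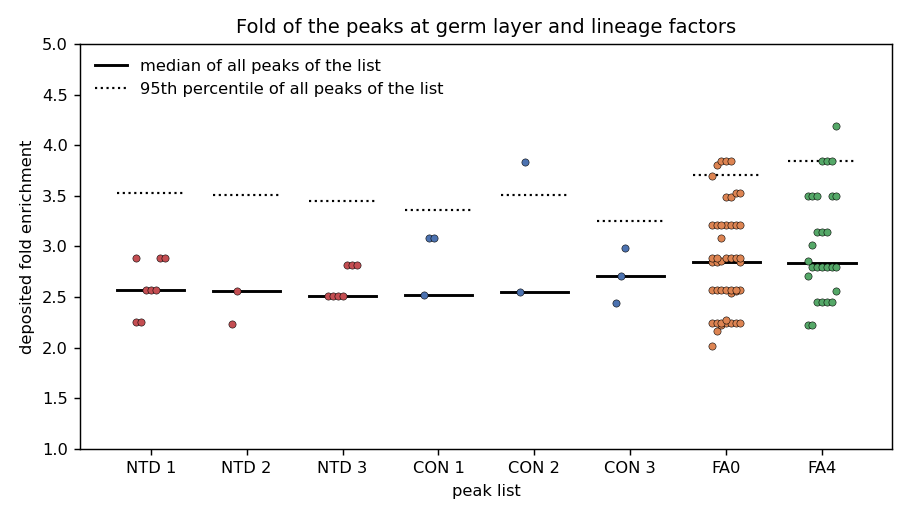
The deposited fold enrichment (vertical axis, a ratio) of each member peak (points) is shown for the 8 lists, with the median (solid line) and 95th percentile (dotted line) of all peaks of the same list. Member peaks lie between 2.02 and 4.19, around the medians of their lists.

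In brain, member genes carried few peaks and they differed from list to list. A peak was assigned to 5 of 35 members in NTD 1 (14.3%, Wilson 95% interval 6.26% to 29.4%), where 11.5% of all protein-coding genes had one. The numbers were 2 members in NTD 2 (5.71%, interval 1.58% to 18.6%), against 11.2% of all genes, and 6 in NTD 3 (17.1%, interval 8.10% to 32.7%), against 13.4%. In CON 1, 3 members had a peak (8.57%, interval 2.96% to 22.4%), against 5.95% of all genes. CON 2 had 2 such members, with 12.9% of all genes, and CON 3 had 3, with 8.5% of all genes. Every one of these backgrounds lay inside the interval of the members' share. The intervals treat the 35 genes as random draws, which they were not, so this is a description and not a test.

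The NTD lists averaged 4.33 ± 2.08 members with a peak and the CON lists 2.67 ± 0.577 (SD, n = 3 each). The difference of 1.67 was smaller than the spread of the NTD lists, and the groups overlapped, since NTD 2 had as few as CON 2. It was 2.83 without NTD 2 and 0.833 without NTD 3. All protein-coding genes showed the same order, at 12.1% ± 1.17 in NTD and 9.10% ± 3.49 in CON. Per 1000 peaks of a list, the members had 0.908 ± 0.518 peaks in NTD and 0.709 ± 0.387 in CON. With the brain lists cut to the length of the shortest by deposited p, the difference in members with a peak was 0.

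In the cells a peak was assigned to 20 members in FA0 (57.1%, interval 40.9% to 72.02%), where 48.3% of all protein-coding genes had one. In FA4 it was 14 members (40.0%, interval 25.6% to 56.4%), where 31% of all genes had one. Both backgrounds lay inside the intervals, which is again a description and not a test. The median member spans 7.40 kb, from 0.567 kb for Msgn1 to 88.7 kb for Tbx5, and the median protein-coding gene 17.2 kb. Brain and cell lists name different sets of transcripts, so gene counts are not compared between them.

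**Figure D2:**
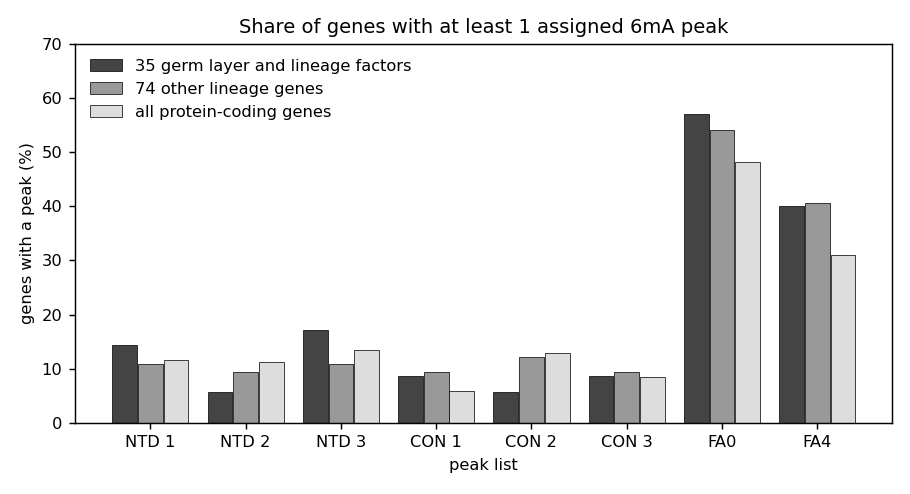
Bars give the percentage of genes with at least 1 assigned peak in each list (vertical axis, from 0), for the 35 members (dark), 74 other lineage genes (middle grey) and all protein-coding genes (light). Member shares run from 5.71% to 17.1% in brain and are 57.1% in FA0 and 40.0% in FA4.

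Of the 28 members with a peak, 15 had one in brain and 23 in the cells. List by list, 5.95% to 13.4% of all protein-coding genes had a peak in brain, 48.3% in FA0 and 31% in FA4. In brain, 12 of the 15 members with a peak had it in 1 list. Isl1 had peaks in 4 brain lists, Gata3 in 3 and Sox17 in 2. By group, 9 of the 15 had peaks in NTD lists alone, where 42% of the 14369 genes with a brain peak did, 4 in CON lists alone, where 28% did, and Gata3 and Isl1 in both groups, where 30% did.

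**Figure D3:**
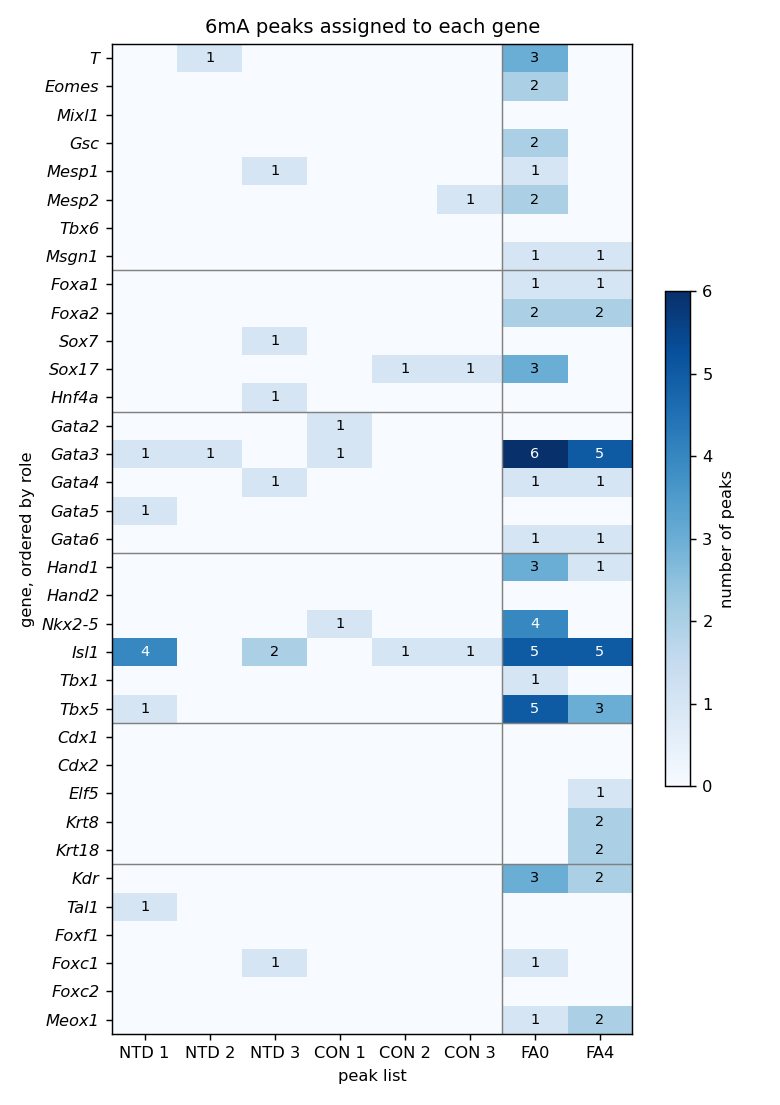
Each cell gives the number of peaks assigned to a gene (rows, ordered by role) in a list (columns), and darker cells hold more. Isl1 and Gata3 have the most, and 7 rows are empty.

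The genes are taken by role, in 6 groups drawn up after the values were seen. The primitive streak and early mesoderm genes were T, Eomes, Mixl1, Gsc, Mesp1, Mesp2, Tbx6 and Msgn1. Of these 8 genes, 6 had a peak in FA0, with 11 pairs of a peak and a gene, and 1 had a peak in FA4. Over all protein-coding genes, 48.3% had a peak in FA0 and 31% in FA4. T, the T-box factor of the streak and notochord also known as Brachyury, had 3 peaks in FA0, 0 in FA4 and 1 in NTD 2. Its FA0 peaks had 6, 7 and 8 tags, and the peak of 6 tags lay in an intron of T, at chr17:8438075-8438425 (mm10). The peak of 7 tags lay 14.4 kb upstream, inside T2, a neighbouring protein-coding gene.

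Eomes, which drives endoderm and early mesoderm formation, held the only exon peak among the members. It lay in FA0 at chr9:118485796-118486175, with 7 tags and a fold of 2.57, 7.80 kb from the transcript start, and a second FA0 peak of 8 tags lay 13.6 kb upstream in a non-coding RNA gene. Gsc, a homeobox gene of the organizer, had 2 peaks in FA0, of 6 tags at 48.8 kb and 11 tags at 92.3 kb upstream, and none elsewhere. Mesp1 and Mesp2, paired bHLH genes of cardiac and somitic mesoderm, lie 17.1 kb apart and shared an FA0 peak of 6 tags between them. Mesp1 also had an NTD 3 peak, which lay inside the protein-coding gene Wdr93, and Mesp2 a CON 3 peak of 8 tags 6.58 kb upstream. Msgn1, a presomitic mesoderm factor, was the member of this group with an FA4 peak, of 9 tags at 24.2 kb upstream, beside an FA0 peak of 8 tags at 5.77 kb.

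Counted by position, as all peaks within the gene or 100 kb to either side whatever gene they were assigned to, each of these 8 genes had more peaks in FA0 than in FA4, as did 23 of the 35 members and 71.9% of all protein-coding genes. T had 6 in FA0 and 0 in FA4, Eomes 7 and 1, Mixl1, a homeobox factor of mesendoderm, 7 and 1, and Tbx6, a paraxial mesoderm factor, 4 and 0. The other 4 genes of the group had 2 or 3 in FA0 and at most 1 in FA4. The whole FA0 list was 1.92 times as long as the FA4 list, and the group was drawn up with these values known. With 1 list per condition no test was possible, and the windows of Mesp1 and Mesp2 overlap.

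The endoderm genes were Foxa1, Foxa2, Sox7, Sox17 and Hnf4a, and each had a peak somewhere. Sox17, which specifies definitive endoderm, had 1 peak in CON 2, 1 in CON 3, 0 in CON 1 and 0 in every NTD list. Its mean was 0.667 ± 0.577 in CON and 0 in NTD, and the groups overlapped at 0. The CON 2 peak, at chr1:4502633-4502960, had 11 tags and a fold of 3.83, the highest fold of any member peak in brain, and lay 5.41 kb upstream. The CON 3 peak lay 39.5 kb upstream with 9 tags, so the pair marked different places. Sox17 had 3 further peaks in FA0, of 9, 9 and 11 tags, 30.2 to 80.5 kb from the start, and 0 in FA4. Foxa2, a fork head factor of endoderm and floor plate, had 2 peaks in FA0 and 2 in FA4, 47.1 to 162.6 kb from its start, and none in brain. Foxa1, its relative in gut endoderm, had 1 in each cell list. Sox7, active in primitive endoderm and vessels, had a single peak, in NTD 3, 29.1 kb upstream and inside Pinx1.

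Promoter peaks, which the authors' classes place within 2000 bases of a transcript start, were found at 3 members. They were among the 17 member pairs of the NTD lists, with none among the 8 of the CON lists, and over all genes promoter peaks made up 6.93% of NTD pairs and 7.26% of CON pairs. Gata5, a GATA factor of endoderm and heart, had one in NTD 1 at chr2:180335249-180335517, with 7 tags and a fold of 2.57, its centre 125 bases past the start. Hnf4a, a nuclear receptor of liver and gut, had one in NTD 3 at chr2:163548375-163548579, with 8 tags, a fold of 2.82 and a centre 1318 bases past a start inside the gene. The third was at Tbx5, described with the heart genes. Neither Gata5 nor Hnf4a had any other peak in the 8 lists. To show the DNA beside these peaks, the nearest RefSeq promoter windows (GRCm38.p6, 250 bases before a start to 50 after it, 5′ to 3′ on the gene's strand) are printed, with capitals for 4 spellings searched on either strand, CAGGC and the same letters with a leading G, with a final T or with both, which have been reported for 6mA in human DNA.
Gata5 start, chr2:180334630-180334929 (- strand): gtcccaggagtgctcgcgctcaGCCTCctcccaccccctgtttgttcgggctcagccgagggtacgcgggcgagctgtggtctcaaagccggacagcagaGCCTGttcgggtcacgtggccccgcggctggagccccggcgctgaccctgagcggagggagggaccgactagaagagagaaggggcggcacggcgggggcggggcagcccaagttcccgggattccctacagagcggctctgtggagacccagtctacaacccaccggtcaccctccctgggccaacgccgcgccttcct
Hnf4a start, chr2:163546905-163547204 (+ strand): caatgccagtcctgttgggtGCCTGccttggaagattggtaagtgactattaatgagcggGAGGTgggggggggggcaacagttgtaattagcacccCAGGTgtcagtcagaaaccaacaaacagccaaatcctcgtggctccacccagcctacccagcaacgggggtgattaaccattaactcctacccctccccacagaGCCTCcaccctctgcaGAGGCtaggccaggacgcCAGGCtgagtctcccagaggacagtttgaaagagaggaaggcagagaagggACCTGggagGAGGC

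The Gata5 window belongs to a start inside the gene and lies 319 bases from its peak, with 2 matches of those spellings and 30.3% A and T bases. The Hnf4a window lies 1170 bases from its peak, with 8 matches and 42.7% A and T. A match is common: 95.3% of all 32851 promoter windows of this length held at least 1, and so did 31 of the 31 windows found for members. Windows were matched for 24 of the 35 members, and 0 of the 31 overlapped a peak of any list, where 1.28% of all windows did. The start nearest the Gata5 promoter peak had no window among the 31, so the 0 describes the matched windows and not all starts of the members. The bases under the peaks themselves were not analysed here.

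The GATA zinc finger factors were Gata2 to Gata6, and all 5 had a peak. Gata3, which acts in trophectoderm, sympathetic neurons and T cells, had 1 peak in NTD 1, 1 in NTD 2, 0 in NTD 3, 1 in CON 1 and 0 in CON 2 and CON 3. Its NTD mean was 0.667 ± 0.577 and its CON mean 0.333 ± 0.577, and the groups overlapped. In the cells it had 6 peaks in FA0 and 5 in FA4, 11 in all, the most of the 35. Gata3 also held the only member peak with a q of at most 0.05. That peak was in FA4, at chr2:9679954-9680246, with 11 tags, a fold of 4.19 and a q of 0.0307, and it lay 198.5 kb downstream of the start with no reference gene over it.

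Of the 6 FA0 peaks at Gata3, 5 lay close together 292.7 to 315.8 kb downstream with 6 to 10 tags, and 1 of 12 tags lay 93.5 kb downstream. In FA4 the 5 peaks lay 94.9 to 220.3 kb downstream. The FA4 peak at 94.9 kb (chr2:9783535-9783788) and the FA0 peak at 93.5 kb (chr2:9784976-9785276) were near each other but did not overlap. In brain, the NTD 1 peak lay in an intron of Gata3 at 5.24 kb, and the NTD 2 and CON 1 peaks 114.9 and 85.9 kb downstream.

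Gata4, a heart and endoderm factor, had an intron peak of 8 tags in NTD 3, 9.95 kb from the start, and 1 peak in each cell list. Gata6, its partner in heart and primitive endoderm, had 1 peak in each cell list, in a long non-coding RNA gene upstream, and none in brain. Gata2, needed for blood stem cells, had a single peak, of 10 tags in CON 1, 11.2 kb from the start.

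The heart genes were Hand1, Hand2, Nkx2-5, Isl1, Tbx1 and Tbx5. Isl1, a LIM homeobox factor of the second heart field that is also made in motor neurons, had the most peaks of the 35. It had 4 in NTD 1, 0 in NTD 2, 2 in NTD 3, 0 in CON 1, 1 in CON 2 and 1 in CON 3, with 5 in FA0 and 5 in FA4. The NTD mean was 2 ± 2 and the CON mean 0.667 ± 0.577, and the groups overlapped since NTD 2 had none. When the 6 lists were divided into 3 and 3 in all 20 ways, an exact permutation test (two-sided, smallest possible p 0.1) gave a p of 0.5 for Isl1 and a Benjamini-Hochberg adjusted p of 1 over the 14369 genes with a brain peak.

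The peaks assigned to Isl1 were far off. In brain, 6 of its 8 peaks were over 100 kb from the start, and in the cells 9 of 10, up to 598.1 kb in FA4. The nearest was an NTD 1 peak of 7 tags 4.35 kb upstream, at chr13:116313968-116314183. Within 100 kb of the gene, counted by position, there was 1 peak in NTD 1, 1 in NTD 3, 1 in FA4 and 0 in the other 5 lists. The count for Isl1 was thus mostly one of peaks in its wide surroundings.

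Tbx5, a T-box factor of heart and forelimb, had 1 peak in NTD 1, 0 in the other 5 brain lists, 5 in FA0 and 3 in FA4. The NTD 1 peak was classed as a promoter peak, at chr5:119830396-119830638, with 8 tags and a fold of 2.89, 1657 bases before the start. It was also assigned to the promoter of the non-coding gene Gm5563 and lies inside Tbx5 as the reference draws it. In the cells Tbx5 held the only peaks at a member that overlapped between FA0 and FA4. The FA0 peak, chr5:119925413-119925767 with 9 tags, and the FA4 peak, chr5:119925176-119925499 with 7 tags, shared 87 bases, or 26.9% of the shorter one, about 91 kb downstream of the start.

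Nkx2-5, a homeobox gene of the early heart tube, had 1 peak in CON 1, 0 in the other brain lists, 4 in FA0 and 0 in FA4. The CON 1 peak, chr17:26831585-26831958 with 10 tags and a fold of 3.08, overlapped the FA0 peak chr17:26831395-26831701 with 11 tags and a fold of 3.85. They shared 117 bases, 38.1% of the shorter one, about 10 kb past the gene's start. Hand1, a bHLH factor of heart and trophoblast giant cells, had 3 peaks in FA0 and 1 in FA4, 8.89 to 78.8 kb from its start, and none in brain. Tbx1, a T-box factor of the pharyngeal arches, had 1 peak, in FA0, 37.3 kb away inside Gnb1l.

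**Figure D4:**
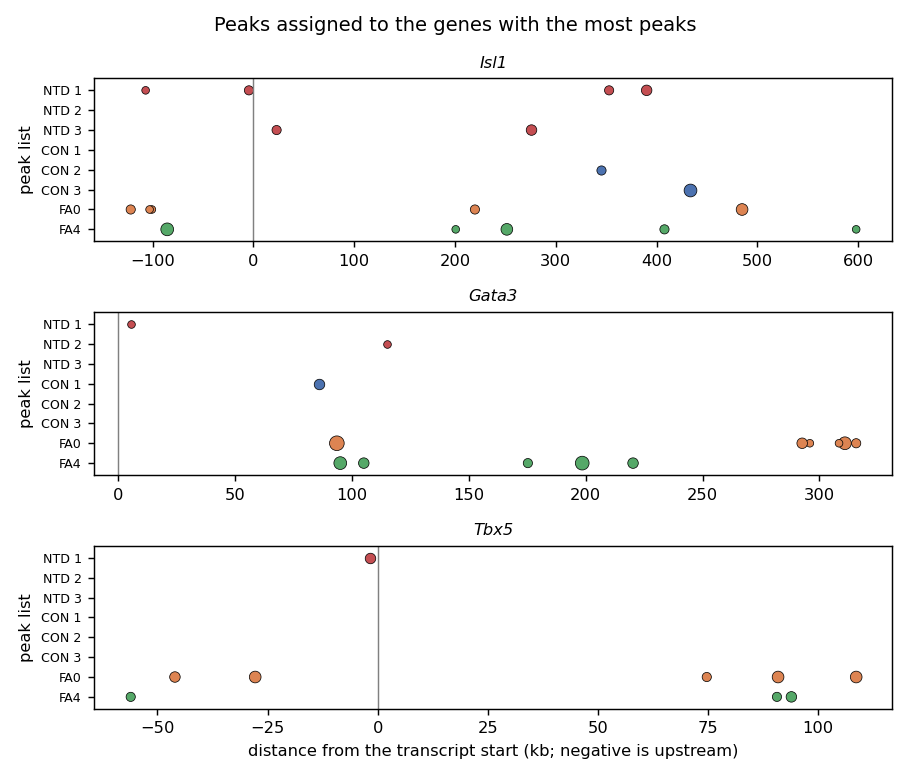
Peaks of Isl1, Gata3 and Tbx5 are placed by their distance in kb from the transcript start (horizontal axis, negative upstream) in each list (rows), and larger points have more tags. Isl1 peaks reach 598.1 kb, those of Gata3 315.8 kb, and the FA0 and FA4 peaks of Tbx5 near 91 kb lie one above the other.

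The Cdx genes, Elf5, Krt8 and Krt18 form the group of posterior, trophectoderm and simple epithelium genes. None had a brain peak or an FA0 peak, where 48.3% of all protein-coding genes had an FA0 peak. This absence depends on the grouping, which was made after the values were seen. Gata3 and Hand1, which also act in trophectoderm or trophoblast, were placed in other groups and had 6 and 3 FA0 peaks. In FA4, Elf5, an ETS factor of trophoblast stem cells, had an intron peak of 7 tags. Krt8 and Krt18, the keratin pair of simple epithelia, had 2 each and shared 1 of them, so that the group held 4 distinct peaks of 7 to 9 tags. One of the Krt8 peaks lay inside Krt78. By position, the windows of Krt8 and Krt18, genes 23.9 kb apart, held the same 5 peaks in FA4 and 0 in FA0. The window of Elf5 held 5 in FA0 and 1 in FA4, and that of Cdx1 4 and 0. The absence of FA0 at Elf5 was thus one of assignment, not of peaks nearby.

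The last group took in Kdr, Tal1, Foxf1, Foxc1, Foxc2 and Meox1. Kdr, the main VEGF receptor of vessel precursors, had 3 peaks in FA0 and 2 in FA4 and none in brain. One FA0 peak, of 9 tags, lay in an intron at chr5:75936195-75936644. Meox1, a homeobox gene of somites, had 1 peak in FA0, of 11 tags, and 2 in FA4, and no peak in brain. Tal1, a bHLH factor of blood and endothelium, had a single peak of 8 tags in NTD 1, 4.27 kb upstream, and Foxc1, a fork head factor of mesoderm and neural crest, 1 in NTD 3 and 1 in FA0.

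The 7 members without an assigned peak were Mixl1 and Tbx6 of the streak group, Cdx1 and Cdx2, the caudal-type factors of posterior and trophectoderm fates, Hand2, a bHLH factor of heart and limb, and Foxf1 and Foxc2, fork head factors of mesoderm. Peaks did lie near them. Cdx1 had an FA0 peak of 9 tags inside the gene, which the authors' annotation gave to its neighbour Slc6a7. Hand2 had 5 FA0 and 4 FA4 peaks within 100 kb, assigned to Scrg1, LOC102636514 and 5033428I22Rik. Foxf1 had 6 and 2 and Foxc2 7 and 3, assigned to Foxl1 and Fendrr. Foxf1 and Foxc2 are 28.0 kb apart, so their windows overlap and hold peaks in common. The Foxc2 and Foxl1 genes are 8.79 kb apart. Hand2, Foxf1 and Foxc2 lie on chromosome 8, which held 18.7% of all FA4 peaks and 9.31% of all FA0 peaks, and its part in these counts was not tested. Cdx2 had 0 FA0 peaks and 1 FA4 peak within 100 kb.

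Gene by gene, no member passed the test between NTD and CON brain. Of the 15 members with a brain peak, 0 had more peaks in every NTD list than in any CON list, where 1.22% of the 14369 genes did. Likewise, 0 members had more in every CON list than in any NTD list, where 0.292% of genes did. The smallest member p in the exact permutation test was 0.4, for Sox17, and every adjusted p was 1. With 3 lists a group the smallest p is 0.1, so no gene could pass, and 0 genes had an unadjusted p under 0.05. Without NTD 2, Isl1 alone of the 15 members had more peaks in each remaining NTD list than in any CON list, as did 602 of the 14369 genes. Without CON 1, Sox17 alone of the 15 had more peaks in each remaining CON list than in any NTD list, as did 288 of the 14369 genes. NTD 2 was the NTD list in which Isl1 had 0 peaks, and CON 1 the CON list in which Sox17 had 0. Both outcomes thus follow from the list left out.

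Between the cell conditions, members had 48 pairs in FA0 and 29 in FA4, a ratio of 1.66 beside the 1.92 of the whole lists, and of 0.862 once FA0 was cut to the length of FA4. Of the 23 members with a cell peak, 10 had at least 2 times as many in FA0 as in FA4 and 4 the reverse. Over all 14488 genes with a cell peak these shares were 61.9% and 19%. Peaks were found in FA0 alone at 9 members (39.1%, against 43.8% of all), in FA4 alone at 3 (13.04%, against 14.3%), which were Elf5, Krt8 and Krt18, and in both at 11 (47.8%, against 41.9%). Per 1000 peaks of the list, members had 1.22 in FA0 and 1.39 in FA4.

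Member peaks sat mostly outside genes. In the cells, 64 of 77 pairs (83.1%) were classed as intergenic, against 49.4% of all pairs in these lists and 70.6% of those at 74 other lineage genes, and 3 (3.90%) as intron, against 31.6%. In brain, 16 of 25 (64.0%) were intergenic, against 47.6%, and 2 (8%) intron, against 26.0%. Promoter peaks made up 3 of 25 pairs in brain (12.0%, against 7.07% of all) and 0 of 77 in the cells (against 3.37%). These are shares of peaks, and gene length, which is short for most members, was not taken into account. By position in the reference, 28 of the 100 distinct peaks lay inside some gene, 10 of them in the member's own gene and 18 in other genes only. The same share over all peaks is not given here, so these numbers do not set the members apart from other genes.

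The median distance from the start was 23.1 kb in brain, beside 25.9 kb for all pairs, and 60.7 kb in the cells, beside 51.2 kb. In brain 7 of 25 were over 100 kb away (28.0%, against 20.8%), and all 7 belonged to Isl1 and Gata3. In the cells 23 of 77 were (29.9%, against 35.4%), 18 of them at Isl1 and Gata3. Within 5 kb lay 5 brain pairs (20%, against 15.5%) and 3 cell pairs (3.90%, against 8.62%).

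**Figure D5:**
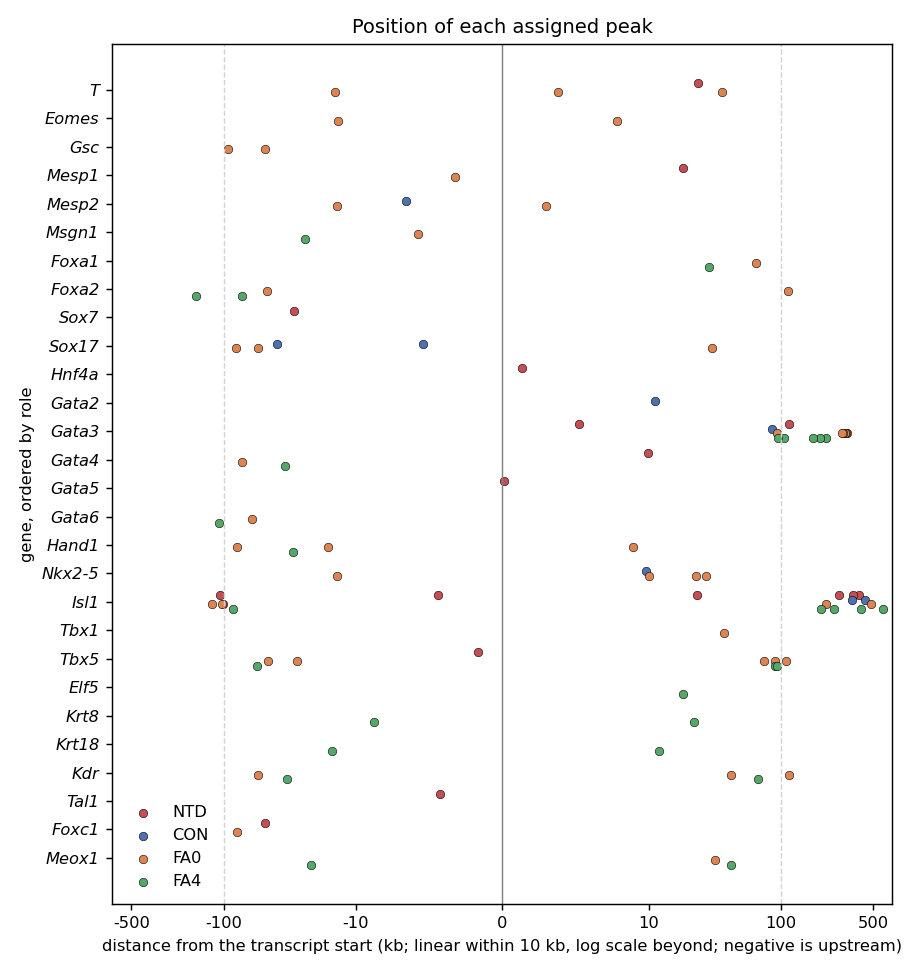
Each point is 1 peak, placed by its distance in kb from the transcript start of its gene (horizontal axis, linear within 10 kb and logarithmic beyond, negative upstream) and coloured by group or condition. Points within 2 kb of a start are at Gata5, Hnf4a and Tbx5, and those beyond 300 kb at Isl1 and Gata3.

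No member peak recurred among the brain lists. Of 25 brain peaks at members, 0 overlapped a peak of another brain list, where 4.13% of all brain peaks did. Those of Isl1, Gata3 and Sox17, the members with peaks in more than 1 brain list, therefore lay at different places each time. The Nkx2-5 peak was 1 of 25 that overlapped a cell peak, where 3.45% of all brain peaks did. The Tbx5 peak was 1 of 28 distinct FA4 peaks at members that overlapped FA0, where 3.44% of all FA4 peaks did.

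By position, within 100 kb of the 35 genes there were 12, 13 and 21 pairs of a peak and a gene in NTD 1 to 3. In CON 1 to 3 there were 4, 7 and 13. A peak in overlapping windows is counted once for each gene, so these are not numbers of distinct peaks. Relative to the density around all protein-coding genes this was 0.687, 0.775 and 1.01 in NTD (mean 0.823 ± 0.165, n = 3) and 0.457, 0.333 and 1.01 in CON (mean 0.600 ± 0.361, n = 3). The groups overlapped. Within 50 kb the values were 1.07, 0.335 and 1.52 in NTD (mean 0.9748 ± 0.598) and 0.429, 0.266 and 1.03 in CON (mean 0.575 ± 0.403), so the order of the lists depended on the window and the groups overlapped again. In FA0 there were 119 such pairs and in FA4 63, at relative densities of 0.913 and 1.05. Counted this way, peaks near these genes were about as dense as near others in the cells. The background of a peak was raised above its list's usual value at 0 of 25 member peaks in brain (11.7% of all) and at 21 of 75 in the cells (28.0%, against 36.9% of all).

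A further 74 germ layer and lineage genes, listed by role, had peaks about as often. Of these, 58 had a peak, 33 in brain and 48 in the cells. Per list, 8, 7 and 8 had a peak in NTD 1 to 3 and 7, 9 and 7 in CON 1 to 3, means of 7.67 ± 0.577 and 7.67 ± 1.15. In FA0 40 of 74 had one (54.1%) and in FA4 30 (40.5%), beside 57.1% and 40.0% of the members. The 74 genes had 138 peaks in FA0 and 56 in FA4, a ratio of 2.46. This ratio was 1.66 for the members and 1.92 for the whole lists. Of the 48 with a cell peak, 32 (66.7%) had at least 2 times as many in FA0. So did 10 of 23 members (43.5%) and 61.9% of all genes with a cell peak. None of these differences was tested. Among these genes Cdh5, the cadherin of endothelial junctions, had 9 peaks in FA0 and 9 in FA4, Foxl1, a gut mesenchyme fork head factor, 11 and 5, and Trp63, the p63 factor of stratified epithelium, 9 and 2. Foxd3, of neural crest and epiblast, had 7 and 3, Tbx18, of epicardium and somites, 9 and 1, and Prox1, of lymphatic vessels and liver, 5 and 5. Cdh5 and Foxl1 lie on chromosome 8.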

How the data were processed

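6mA MeDIP-seq of mouse brain and stem cell DNA gave 8 deposited peak lists, from 4 records of immunoprecipitates. The 4 inputs were not analysed on their own. Cutadapt 1.9.2, Bowtie2 2.2.4 and the build mm10 come from the submitters' processing notes, and no source used here names the peak caller. Per the file headers, each immunoprecipitation had its own peak calls, and the 3 brain lists of a group were set against the same input. Case was taken as NTD because Control matches CON. Every deposited p was at most 0.01.

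The deposited tag count is whole and unscaled, as its values show; whether it is a total or a summit height is not stated. The authors gave p-value and q-value as −log10. The deposited fold is a ratio of tags plus 1 over background plus 1, read from its values, and the background was recovered from it. The deposited peak length and the distance from peak centre to transcript start are in bases, per the file headers. Without library totals, depth is known at the peaks alone.

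Rows were reduced to 1 per peak and gene, at the nearest start. Classes and gene assignments are the authors'; promoter means within 2000 bases of a start and upstream up to 20000. Symbols were matched to RefSeq genes of GRCm38.p6 (92.4% to 99.7% of a list's symbols). Overlap needed 1 base. The number of peaks per gene went into an exact permutation test over the 6 brain lists, with Benjamini-Hochberg adjustment over all 14369 genes, tested on simulated data. Nothing establishes that the 3 lists of a group are separate embryos, so the p-values measure only the spread between lists. Same-numbered lists are not stated to be paired. The members and lists were chosen with earlier results of these data known. Described in full were members with peaks in 2 or more brain lists, overlapping cell peaks, a promoter or exon peak or a q of at most 0.05, and the 10 with the most cell peaks; other genes were picked with their values known. Alternatives tried were a fold of at least 5, a q of at most 0.05, promoter, exon and intron peaks only, peaks within 100 kb, lists cut to equal length, 50% overlap, lists left out and lists paired; a 50 kb window was added after seeing the data. Base composition under the peaks was planned and not run, as it needs a genome. Python 3.11.15, numpy 2.4.6, pandas 2.3.3, scipy 1.17.1 and matplotlib 3.10.9 were used.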

Additional observations from a re-analysis of the deposited data

How the results depend on the processing

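Most counts rest on weak and distant peaks. With a fold of at least 5, the difference between NTD and CON in members with a peak (1.67) became 0, as did the NTD and CON mean peak counts and the FA0 and FA4 numbers of members and of peaks, and no ratio of FA0 to FA4 could be formed. With a q of at most 0.05 the brain values and the FA0 numbers were 0, the FA4 numbers were 1 member and 1 peak, and the ratio was 0. With promoter, exon and intron peaks only, the NTD mean was 1.67 peaks and the CON mean 0. NTD 2 had no such peak, so the groups overlapped. FA0 then had 3 members and 3 peaks, FA4 1 and 1, and the ratio was 3. With lists cut to equal length by the deposited p, the NTD minus CON difference was 0, the NTD mean 2 peaks, FA0 had 25 peaks and the ratio was 0.862, below 1. Within 100 kb, FA4 had 19 peaks. The FA0 and FA4 overlap at Tbx5 ended at 50% overlap, leaving 0. The number of genes whose brain groups do not overlap, 217, was 436 to 667 with 1 list left out, where fewer lists must be separated. Leaving out 1 list gave NTD minus CON differences of 0.833 to 2.83. With same-numbered lists paired (the replicate block), the difference was 1.67 ± 1.53 (SD, n = 3 pairs), with pair values of 2, 0 and 3. Of 57 alternatives, 34 moved a value and 23 did not. For the NTD minus CON difference, moved means a change of more than a spread of 1.53 (SD). For the other values it means a change of over 1.5 times. The differences without NTD 2 (2.83) and without NTD 3 (0.833) therefore count as not moved, although they are over 1.5 times from 1.67. Except where stated, the cause was not tested. At 6 to 12 tags a peak, a place without a peak is not shown to lack 6mA.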

Other observations

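Among the 74 further lineage genes, 9 of 244 peaks (3.69%) reached a q of at most 0.05, where the 35 members had 1 of 102 (0.980%) and all lists together 2.63% of peaks. Flt1, a VEGF receptor that restrains vessel growth, had an intron peak of 198 tags and a fold of 63.1 in FA0 and one of 94 tags and a fold of 33.2 in FA4, at nearly the same place 114.4 kb from the start. Its relative Kdr, a member, had no peak above 9 tags. Dll1, a Notch ligand of presomitic mesoderm and neural progenitors, had a peak of 13 tags and a fold of 4.50 in NTD 1, 6.10 kb upstream with a q of 0.0113, and none in any other list. Foxl1 had 2 such peaks in FA4, of 14 and 13 tags. These genes were named after their values were seen.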
